A study of Mus musculus with 2 samples.

Results

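The platelet-derived growth factor (PDGF) family was examined in single-cell RNA-seq of mouse cranial neural crest cells (CNCCs) at E11.5, mid-gestation. The 6 members were the receptor genes Pdgfra and Pdgfrb and the ligand genes Pdgfa, Pdgfb, Pdgfc and Pdgfd. They were chosen by symbol among the 32285 genes in the count tables, and all 6 had at least 1 unique molecular identifier (UMI, a tag that marks 1 captured transcript) in each library. Control embryos were Tfap2a wt/flox and Tfap2b wt/flox, and mutant embryos were Tfap2a flox/flox and Tfap2b flox/flox. Both groups also carried the Wnt1CRE transgene and were homozygous for the r26 mTmG reporter, so controls had lost 1 copy of each TFAP2 gene in the same cells. Wnt1:CRE acts in the dorsal neural tube as well as in the premigratory neural crest, and the cells sorted for GFP came from dissected heads that included the first and second pharyngeal arches. Each group was 1 library that pooled 2 embryos. No replicate error could therefore be estimated, and every interval given here is a 95% interval for counting error only.

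PDGF ligands are secreted as dimers that pair receptor tyrosine kinases at the cell surface. PDGF-A and PDGF-C dimers act chiefly through PDGFRα, whereas PDGF-B and PDGF-D dimers act on PDGFRβ, and PDGF-C and PDGF-D need to be cut by a protease before they can bind. In the head, PDGFRα is known for its part in midfacial development and palate closure, and PDGFRβ for the recruitment of mural cells (pericytes and smooth muscle) to vessels by PDGF-B from endothelium. Tfap2a and Tfap2b, the genes deleted here, encode transcription factors of the neural crest and face.

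After filtering, 5625 control and 5587 mutant cells remained, with medians of 13478 and 12234 UMIs. The mesenchyme-like class had 3758 control and 2816 mutant cells, the glia-like class 260 and 200, the neuron-like class 699 and 1116 and the brain progenitor-like class 776 and 1252. A further 132 and 203 neural cells stayed unnamed, with blood markers at 52220 CPM in control and 2.92 in mutant (CPM, UMIs per 1000000 UMIs of the same cells). All 8 mesenchyme markers, Prrx1 and Twist1 among them, were raised in the mesenchyme-like class, and 11 of 15 mural markers in its mural-like cluster. In the mesenchyme, Tfap2a was at 19.5 CPM in control and 13.4 in mutant, and Tfap2b at 56.8 and 47.8. A 3′ count does not tell an intact floxed transcript from a recombined one, so these values check the labels only in part. Xist was detected in 98.8% of cells in the control library and 0.107% in the mutant, and Y-linked transcripts in 0.0356% and 82.05%, so the effects of genotype cannot be told apart from those of sex.

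Promoter windows were available for 4 of the 6 members, Pdgfra, Pdgfc, Pdgfd and Pdgfa, the last with 2 start sites. The 250 bases before the RefSeq start (build GRCm38.p6) are shown for Pdgfra (chr5:75152001-75152250, plus strand) and Pdgfc (chr3:81036166-81036415, plus strand), the receptor and the ligand with the most UMIs in the mesenchyme, with each CpG dinucleotide in capitals.
Pdgfra: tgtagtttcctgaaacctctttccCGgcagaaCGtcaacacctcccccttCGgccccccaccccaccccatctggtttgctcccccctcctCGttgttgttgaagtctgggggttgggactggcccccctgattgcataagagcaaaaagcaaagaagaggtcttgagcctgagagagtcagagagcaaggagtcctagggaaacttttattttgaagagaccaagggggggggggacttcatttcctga
Pdgfc: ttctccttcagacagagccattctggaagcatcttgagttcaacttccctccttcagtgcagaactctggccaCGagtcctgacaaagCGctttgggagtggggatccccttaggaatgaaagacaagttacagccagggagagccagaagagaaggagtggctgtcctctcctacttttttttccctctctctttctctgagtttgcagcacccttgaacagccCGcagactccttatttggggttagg

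These windows held 4 and 3 CpG dinucleotides, against a median of 6 over all 32851 windows, and both Pdgfa windows were far richer, with 19 and 28. The motif searched for TFAP2 factors, GCCNNNGGC on either strand, was in none of the 5 windows of members and in 13.7% of all windows. The GC box GGGCGG, in 32.7% of all windows, was found only in those of Pdgfa. These letters describe 250 bases and say nothing of binding elsewhere in the loci.

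Pdgfra was detected throughout the mesenchyme in both libraries, and it differed more between facial regions than between genotypes. Pdgfra (ENSMUSG00000029231, chromosome 5, 75152292 to 75198215, GRCm38) had 6011 UMIs in control and 4879 in mutant mesenchyme, or 103 CPM (interval 100 to 106) and 111 CPM (108 to 114). With each cell thinned to 5000 UMIs, 39.6% of control and 40.2% of mutant mesenchyme cells had a Pdgfra UMI (72.7% and 72.6% without thinning). The share in brain progenitor-like cells, which should lack this receptor, was 1.57% and 1.32%, at median depths of 11560 and 11304 UMIs against 14568 and 14472 in mesenchyme. Detection was thus far above this background in both libraries.

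Among mesenchyme clusters, control Pdgfra was at 147 CPM in second arch-like cells (marked by Hoxa2 and Hoxb2), 132 in periocular or meningeal-like cells (Foxc1, Foxc2) and 115 in mural-like cells. The mandibular-like clusters, one led by Hand1 and Hand2 and one by Dlx3 together with the second arch gene Hoxa2, were at 117 and 122 CPM. The figures label the Dlx3-led cluster by another of its markers, Dlx5. Lower levels were found in the Foxl2-led frontonasal-like cluster at 102, in maxillary-like cells (Lhx6, Lhx8) at 78.7 and in the Pax7-led frontonasal-like cluster at 74.8. Neighbours in the order of levels overlapped in their intervals, apart from the Foxl2-led frontonasal-like (93.8 to 110.2) and maxillary-like (73.9 to 83.8) clusters. Among named clusters, the mutant library had the same ones at the bottom, with 77.4 CPM in maxillary-like and 80.3 in Pax7-led frontonasal-like cells, and periocular or meningeal-like and second arch-like cells at the top with 168 and 166 CPM.

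Of the named mesenchyme clusters at a resolution of 0.4, the periocular or meningeal-like one alone had a Pdgfra difference between libraries beyond counting error. Its 528 control cells held 919 UMIs (132 CPM, 124 to 141) and its 458 mutant cells 1004 (168 CPM, 158 to 179), a log2 ratio of mutant over control of 0.35 (0.22 to 0.48). With thinned cells, 46.4% of control cells there (42.0 to 50.9) and 54.0% of mutant cells (49.2 to 58.7) had a Pdgfra UMI. The difference stayed below 1.5-fold. In the other 7 named mesenchyme clusters the log2 ratio of Pdgfra lay between -0.10 and 0.19, with each interval reaching 0. The unnamed, doublet-rich cluster was at -0.39 (-0.76 to -0.02). The result depends on the clustering, since no cluster had the periocular or meningeal-like name at the next higher resolution. When all cells were clustered together, an Alx1-led mesenchyme-like cluster was at 0.21 (0.10 to 0.32) and a Tagln-led one at 0.28 (0.12 to 0.45). The intervals of the other mesenchyme-like clusters there reached 0.

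**Figure D1:**
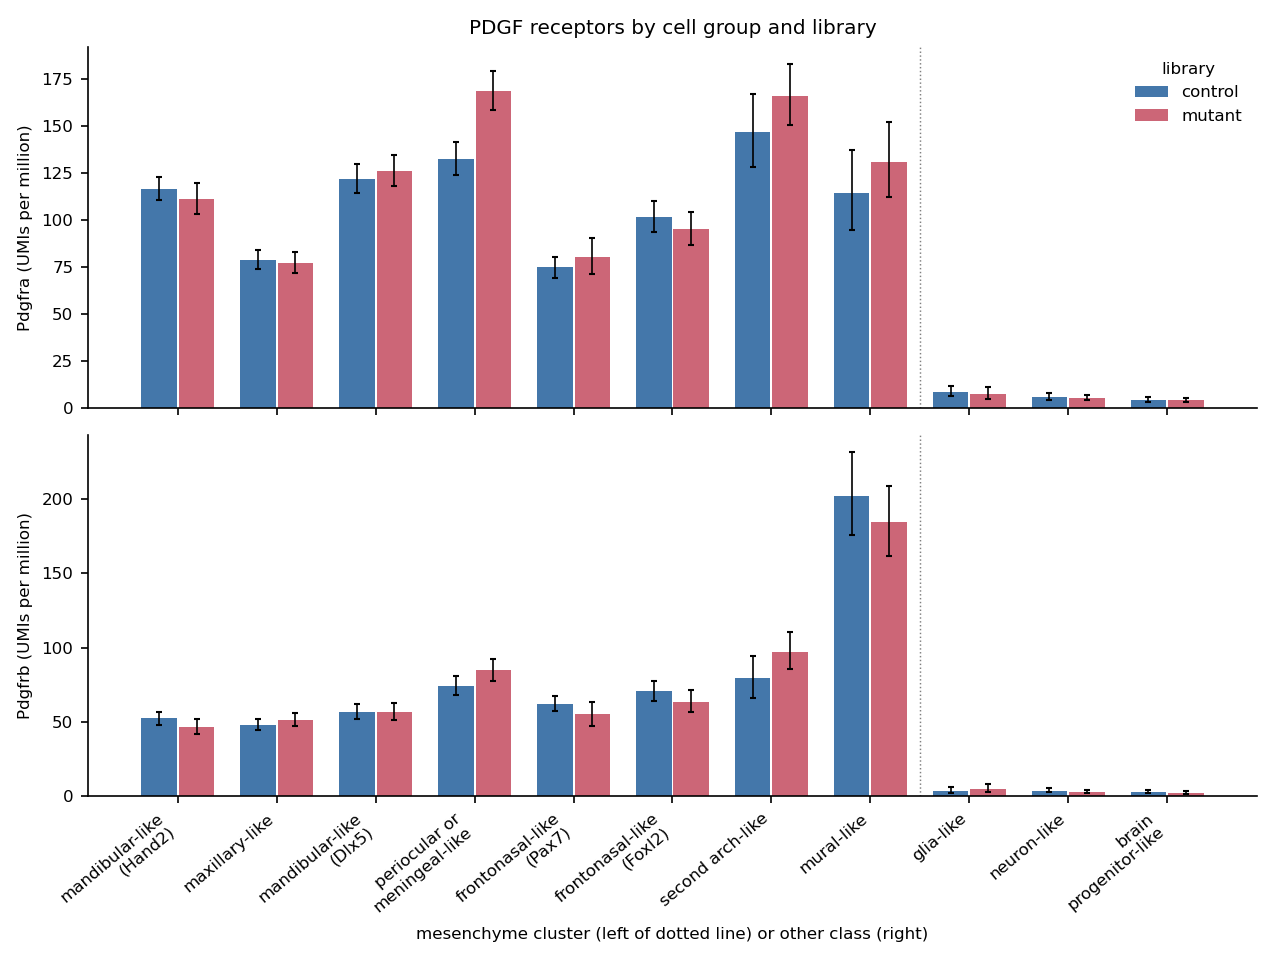
Levels of Pdgfra (top) and Pdgfrb (bottom) in UMIs per 1000000 (CPM) for each named mesenchyme cluster and, right of the dotted line, other classes, in the control (blue) and mutant (red) library; bars are sums over cells and error bars 95% Poisson intervals for counting error. Pdgfra is spread over all mesenchyme clusters, Pdgfrb peaks in mural-like cells at 202 and 184 CPM, and both are below 10 CPM in the glia-like, neuron-like and brain progenitor-like classes shown.

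Pdgfrb, the receptor known for its part in mural cells, was likewise found throughout the mesenchyme but stood out in mural-like cells. Over the whole mesenchyme it had 3580 control and 2814 mutant UMIs, or 61.4 CPM (59.4 to 63.4) and 64.0 CPM (61.7 to 66.4). The mural-like cluster, led by Vtn, Acta2 (smooth muscle actin) and Tagln (transgelin), had 86 control and 114 mutant cells with 208 and 242 Pdgfrb UMIs. This came to 202 CPM (175 to 231) and 184 CPM (162 to 209), so that mural-like cells were 2.55-fold above the next cluster in control and 1.89-fold in mutant. The members took no part in the clustering, but the clusters were cut from these cells, so this is a description.

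In the other named mesenchyme clusters Pdgfrb ran from 48.0 CPM in maxillary-like to 79.2 in second arch-like control cells, and from 46.7 in Hand2-led mandibular-like to 97.3 in second arch-like mutant cells. Neighbours below the mural-like cluster overlapped in their intervals in control. Second arch-like and periocular or meningeal-like cells came next after mural-like ones in both. The order thus differed from that of Pdgfra chiefly in the place of the mural-like cells and of the Pax7-led frontonasal-like cells, which were last for Pdgfra in control and in the middle for Pdgfrb at 62.2 CPM. Pdgfrb (ENSMUSG00000024620) lies on chromosome 18, from 61045150 to 61085061, with no overlapping gene annotated.

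Between genotypes Pdgfrb differed little. In mural-like cells the log2 ratio of mutant over control was -0.13 (-0.41 to 0.14), and in periocular or meningeal-like cells, with 74.4 and 84.7 CPM, it was 0.19 (0.01 to 0.37). Of the members, Pdgfra and Pdgfrb reached 100 UMIs over both libraries in mural-like cells, and neither was 1.5-fold apart, against 3.68% of the 4027 genes with as many UMIs there. The 2 mural-like groups were not alike in other respects. The summed mural markers were at 845 CPM in control and 1882 in mutant, with 2 and 1 of the 15 at 0, and the 8 endothelial markers at 158 and 71.5 CPM, with 0 and 2 of 8 at 0. In the mutant, 2 cells held 694 of the 2475 mural-marker UMIs. The other 112 mutant cells were at 1389 CPM for these markers, still above the control. A single control cell held 112 of the 163 endothelial-marker UMIs, and the other 85 control cells were at 50.4 CPM, below the mutant. The part of these differences in the Pdgfrb values was not tested. At the next higher resolution the mural-like cluster took in more cells, 361 control and 366 mutant, and the log2 ratio of Pdgfrb had the other sign, 0.21. When all cells were clustered together, Pdgfrb in the Tagln-led mesenchyme-like cluster was at 0.21 (0.01 to 0.40). A mesenchyme-like cluster with Cyp26a1 and Dlx3 among its leading genes, here called Cyp26a1-led, was at 0.16 (0.01 to 0.31). For the remaining mesenchyme-like clusters of that clustering the intervals reached 0.

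In the named neural classes both receptors were at low levels. Pdgfra was at 4.53 to 8.71 CPM in control and 4.19 to 7.69 in mutant glia-like, neuron-like and brain progenitor-like cells, and Pdgfrb at 2.88 to 3.80 and 2.36 to 4.92. Of all UMIs of either receptor, Pdgfra made up 62.7% (61.7 to 63.6) in control mesenchyme, 61.5% (49.8 to 72.3) in control neuron-like cells and 61.1% (48.9 to 72.4) in control brain progenitor-like cells. The mutant shares were 63.4%, 65.4% and 64.0%. The unnamed neural class was higher, with Pdgfra at 16.6 and 10.7 CPM (22 UMIs in each library) and Pdgfrb at 11.3 and 11.2 CPM (15 and 23 UMIs), and its mesenchyme markers summed to 389 CPM in both libraries, against 102 and 105 in brain progenitor-like cells. At a resolution of 0.4, an unnamed cluster of 51 control and 59 mutant cells held 18 and 13 Pdgfra UMIs, or 40.1 and 27.0 CPM. Car2, Sptb and Epor were among its leading genes. It was shallow, with medians of 1151 and 2329 UMIs, and 21.6% and 35.6% of its cells were called doublets. The other unnamed neural cluster was at 4.55 and 4.52 CPM for Pdgfra. A finer neuron-like cluster of 50 control and 145 mutant cells held 10 and 2 Pdgfrb UMIs, or 16.5 and 1.35 CPM. The part of mesenchyme RNA in these values was not tested. The intervals of the shares of Pdgfra in the named classes overlapped, and no expression in neural cells is read from so few UMIs.

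Cells with UMIs of both receptors were found in all 8 named mesenchyme clusters. After thinning to 5000 UMIs, the share with both was 11.6% (10.6 to 12.7) in control and 12.0% (10.8 to 13.3) in mutant mesenchyme. A Pdgfrb UMI was present in 29.3% of control mesenchyme cells with a Pdgfra UMI and in 24.7% of those without, and in 29.9% and 25.6% of mutant cells. All thinned cells had the same depth, but regions were pooled in these shares, and the part of region was not tested. The product of the 2 receptors' shares was 10.5% in control and 11.0% in mutant.

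The mix of receptors differed by region. In control mural-like cells, 22.8% (14.1 to 33.6) held both, 37.97% Pdgfrb only and 12.7% Pdgfra only, and in mutant mural-like cells 18.9% (11.9 to 27.6) held both, 30.2% Pdgfrb only and 24.5% Pdgfra only. The share with both was 15.0% (12.0 to 18.4) in control and 20.2% (16.5 to 24.2) in mutant periocular or meningeal-like cells, and 16.9% and 16.7% in second arch-like cells. Among named mesenchyme clusters, the lowest shares were those of maxillary-like cells at 7.68% and 7.63% and, in the mutant, of Pax7-led frontonasal-like cells at 7.32%. Brain progenitor-like cells with both were not found, which at a floor of 3 counts allows up to 0.393% of the 763 thinned control cells to hold UMIs of both and sets no limit on expression.

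**Figure D2:**
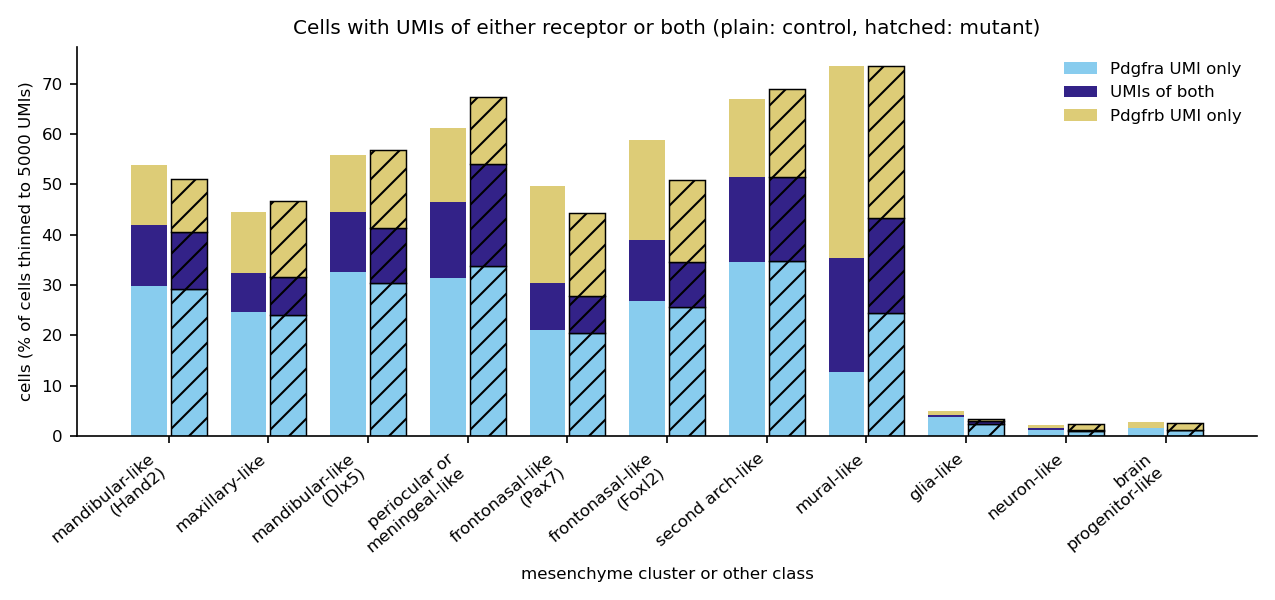
Share of cells, each thinned to 5000 UMIs, with a UMI of Pdgfra only (light blue), of both receptors (dark blue) or of Pdgfrb only (yellow) in each named mesenchyme cluster and 3 other classes, for control (plain) and mutant (hatched). Mural-like cells have the largest Pdgfrb-only part, 37.97% in control and 30.2% in mutant. The named neural classes have few cells with either receptor, the largest part being 3.88% with Pdgfra only in control glia-like cells.

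Pdgfc was the ligand with the clearest regional pattern, high in the mandibular and second arch mesenchyme and lowest in Pax7-led frontonasal-like and mural-like cells. Pdgfc (ENSMUSG00000028019, chromosome 3, 81036416 to 81214040) had 1802 control and 1363 mutant UMIs in mesenchyme, or 30.9 and 31.0 CPM. In control it was at 73.4 CPM (68.6 to 78.5) in Hand2-led mandibular-like cells, 47.5 (42.8 to 52.4) in the Dlx3-led mandibular-like cluster and 42.9 (33.1 to 54.5) in second arch-like cells. It was at 22.2 CPM in periocular or meningeal-like, 15.5 in maxillary-like, 12.4 in Foxl2-led and 5.33 (3.97 to 7.01) in Pax7-led frontonasal-like cells. Mural-like cells were at 7.77 CPM on 8 UMIs. The Foxl2-led cluster overlapped in its interval with both maxillary-like and mural-like cells. In Hand2-led mandibular-like cells the share with UMIs of both Pdgfc and Pdgfra was 12.4% in control and 10.5% in mutant, against 0.369% and 0.976% in Pax7-led frontonasal-like cells.

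The order of the named clusters was the same in the mutant library, with 59.9 CPM (54.1 to 66.2) in Hand2-led mandibular-like cells and 7.05 in Pax7-led frontonasal-like cells. In the Hand2-led cluster the 801 control cells held 854 Pdgfc UMIs and the 401 mutant cells 390, a log2 ratio of -0.29 (-0.47 to -0.12), the lowest of any named cluster. Thinned cells with a Pdgfc UMI made up 28.1% (25.0 to 31.3) and 23.3% (19.3 to 27.8). In maxillary-like cells the ratio went the other way, with 192 and 195 UMIs in 651 and 513 cells, 15.5 and 19.4 CPM and a log2 ratio of 0.33 (0.03 to 0.62). In the other 6 named mesenchyme clusters the log2 ratio lay between 0.08 and 0.82, and each interval reached 0. Directions there were not stable: the Pax7-led frontonasal-like value of 0.40 was -0.86 at the next resolution and 1.40 with thinning, and the Dlx3-led value of 0.08 was -0.21 with thinning. When all cells were clustered together, Pdgfc in the Alx1-led mesenchyme-like cluster was at 0.44 (0.13 to 0.75), with 193 and 161 UMIs. It was at 0.19 (0.01 to 0.36) in the Cyp26a1-led one and at -0.41 (-0.59 to -0.24) in a Hand2-led one. In the remaining mesenchyme-like clusters of that clustering the intervals reached 0. None of the differences in clusters with at least 100 UMIs was 1.5-fold.

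**Figure D3:**
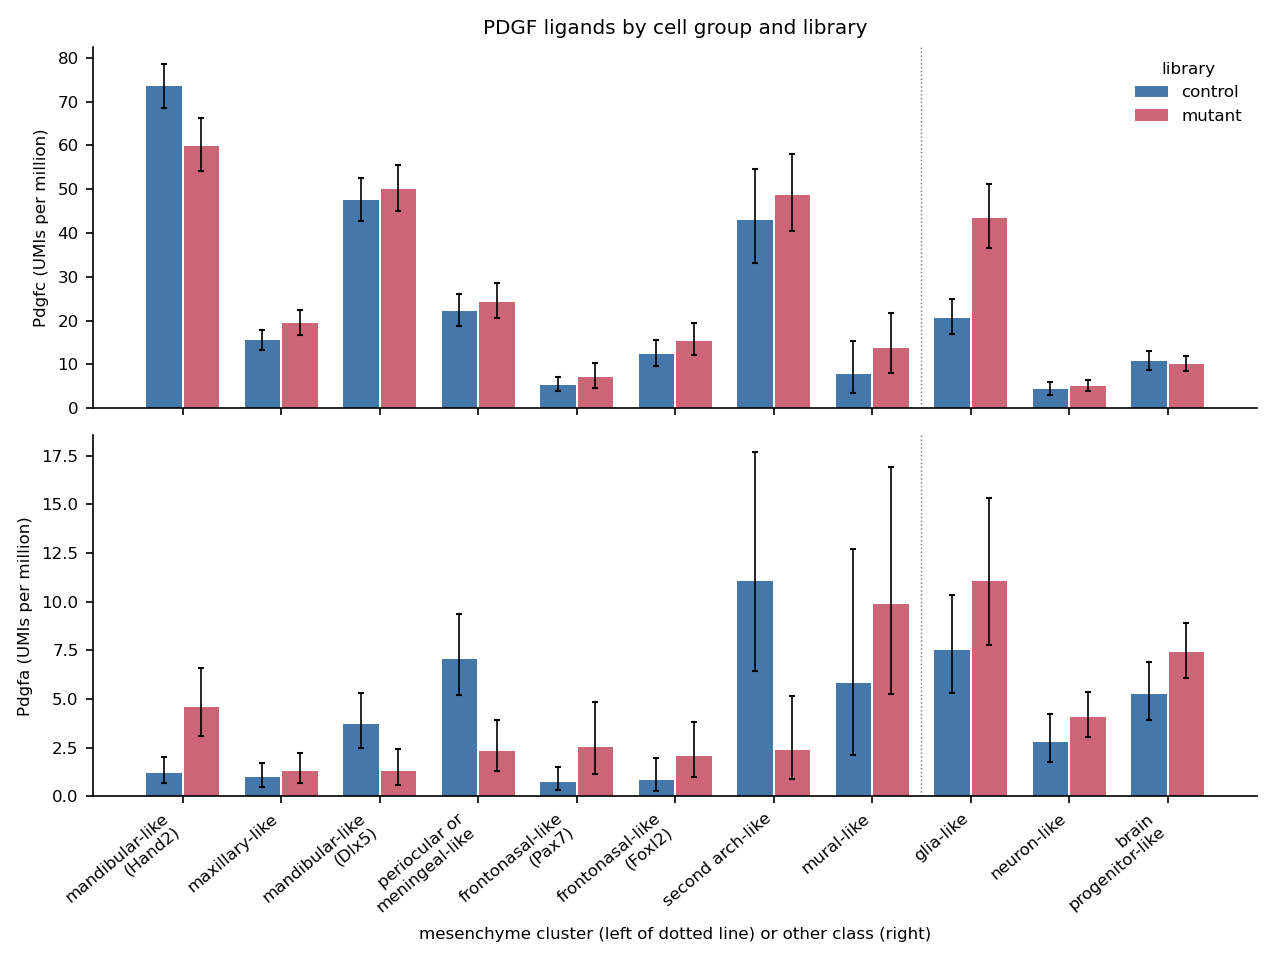
Levels of Pdgfc (top) and Pdgfa (bottom) in UMIs per 1000000 (CPM) by mesenchyme cluster and, right of the dotted line, other classes, for the control (blue) and mutant (red) library, with 95% Poisson intervals for counting error. Pdgfc runs from 73.4 CPM in Hand2-led mandibular-like to 5.33 in Pax7-led frontonasal-like control cells, and Pdgfa has wide intervals in all mesenchyme clusters.

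Outside the mesenchyme, Pdgfc had its highest class level in glia-like cells, marked by Sox10 and Erbb3, and in part of the brain progenitor-like cells. The 260 control glia-like cells held 104 Pdgfc UMIs, or 20.6 CPM (16.8 to 25.0), and the 200 mutant cells 141, or 43.4 CPM (36.5 to 51.1). The log2 ratio was 1.07 (0.70 to 1.45), and the share of thinned cells with a UMI was 8.14% (5.11 to 12.2) and 19.6% (14.3 to 25.8). It was the only member with 100 UMIs in glia-like cells, and 11.1% of the 8041 genes with as many UMIs there were 1.5-fold or more apart.

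The glia-like class did not hold the same cells in both libraries. The 6 neuron markers summed to 2387 CPM in control and 318 in mutant glia-like cells and the 6 glia markers to 621 and 995 CPM, with none at 0. Sox10 was detected in 174 cells of the control class and 182 of the mutant class. Among these Sox10-positive cells, in which neuron markers were at 185 and 178 CPM, Pdgfc was at 28.9 and 43.6 CPM, a log2 ratio of 0.59 (0.20 to 0.98). Among glia-like cells with neuron markers under 500 CPM it was 0.65 (0.27 to 1.04). Under a stricter barcode filter the log2 ratio over all glia-like cells was 0.38, below 1.5-fold. The difference was therefore smaller in Sox10-positive cells and fell short of 1.5-fold under the stricter filter.

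In brain progenitor-like cells Pdgfc was at 10.7 and 10.1 CPM and in neuron-like cells at 4.31 and 5.04 CPM. A finer cluster of progenitors led by Msx3, Olig3, Wnt3 and Wnt3a, genes of the dorsal neural tube, held 38 Pdgfc UMIs in 131 control and 60 in 172 mutant cells, or 24.1 and 28.7 CPM. The other progenitor clusters were at 5.26 and 11.4 CPM in control and 4.55 and 10.9 in mutant. Pdgfc was thus higher in the Msx3-led cells in both libraries, and its log2 ratio between libraries there was 0.25 (-0.36 to 0.88).

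Pdgfa, which epithelia are known to supply to the facial mesenchyme, was sparse in these sorted cells. Pdgfa (ENSMUSG00000025856, chromosome 5, minus strand) had 259 UMIs in all control and 318 in all mutant cells, of which 144 and 110 were in mesenchyme (2.47 and 2.50 CPM). It was at 5.25 and 7.39 CPM in brain progenitor-like cells (51 and 113 UMIs, log2 ratio 0.49, 0.01 to 1.00) and at 7.53 and 11.1 CPM in glia-like cells (38 and 36 UMIs, 0.56, -0.14 to 1.25). Neuron-like cells were at 2.79 and 4.09 CPM. Unlike the receptors, Pdgfa was thus not lower in neural classes than in mesenchyme.

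In the mesenchyme, single cells decided part of the Pdgfa values. One control cell of the periocular or meningeal-like cluster held 26 of its 49 Pdgfa UMIs, and 1 mutant cell of the Hand2-led mandibular-like cluster held 16 of 30. These were the only mesenchyme-like cells with 5 or more Pdgfa UMIs. They held 32 and 13 UMIs of the epithelial markers (24 and 7 of them Epcam), 0 of Pdgfra and 0 of Prrx1, and neither was called a doublet, so both go against the name of their class. The log2 ratio of mutant over control was -1.59 (-2.56 to -0.71) in the periocular or meningeal-like cluster with the epithelial-marked cell and -0.50 without it. In the Hand2-led cluster it was 1.94 (0.98 to 2.97) with and 0.84 without it. In the Dlx3-led mandibular-like cluster, with 30 control and 9 mutant UMIs, it was -1.54 (-2.80 to -0.43), and in second arch-like cells, with 17 and 6 UMIs, -2.22 (-3.85 to -0.81). No cell there held more than 3. All these clusters had fewer than 100 UMIs, and over the whole mesenchyme the log2 ratio was 0.02 (-0.35 to 0.39).

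Pdgfd and Pdgfb were close to the limit of detection. Pdgfd had 48 control and 47 mutant UMIs in all cells, of which 37 and 30 were in mesenchyme, and no cell held more than 1. Its log2 ratio in mesenchyme was 0.11 (-0.64 to 0.84), an interval that reaches past 1.5-fold on either side. The largest Pdgfd sum of any mesenchyme cluster was that of maxillary-like cells, with 13 and 8 UMIs.

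Pdgfb, the ligand that endothelium supplies to mural cells, had 7 control and 9 mutant UMIs in all cells. Of these, 2 control and 4 mutant UMIs were in mural-like cells. The 2 control UMIs came from 1 cell that also held 112 of the 163 endothelial-marker UMIs of the control mural-like cluster. The 4 mutant UMIs came from 2 cells, which held 2 endothelial-marker and 694 mural-marker UMIs, whereas the control cell held 1 mural-marker UMI. No Pdgfb UMI was found in glia-like or neuron-like cells of either library.

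Over the mesenchyme as a whole, the 4 members with enough UMIs to compare differed by less than 1.5-fold between genotypes, and Pdgfb and Pdgfd were too sparse to say. The log2 ratio of mutant over control was 0.11 (0.05 to 0.16) for Pdgfra, 0.06 (-0.01 to 0.13) for Pdgfrb, 0.01 (-0.10 to 0.11) for Pdgfc and 0.02 for Pdgfa. The count of 0 among these members, each with at least 100 UMIs over both libraries, stands against 4.06% of the 12556 genes with as many UMIs that were 1.5-fold or more apart. Regional make-up differed between libraries, with 548 control and 209 mutant cells in the Pax7-led frontonasal-like cluster and 145 and 255 in the second arch-like one. With the share of each cluster held fixed, the log2 ratio was 0.06 for Pdgfra, -0.01 for Pdgfrb, 0.01 for Pdgfc and -0.13 for Pdgfa, so that the signs of Pdgfrb and Pdgfa turned.

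In neuron-like cells Pdgfra alone had 100 UMIs and was not 1.5-fold apart (2.87% of 10359 genes were). Its log2 ratio of -0.14 became -0.78 without doublets, on 30 and 27 UMIs. In brain progenitor-like cells Pdgfra, Pdgfa and Pdgfc had 100 UMIs and 0 of these 3 were (2.13% of 10607 genes). With all cells kept, Pdgfc in glia-like cells was the single difference of 1.5-fold among members with at least 100 UMIs in these classes.

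**Figure D4:**
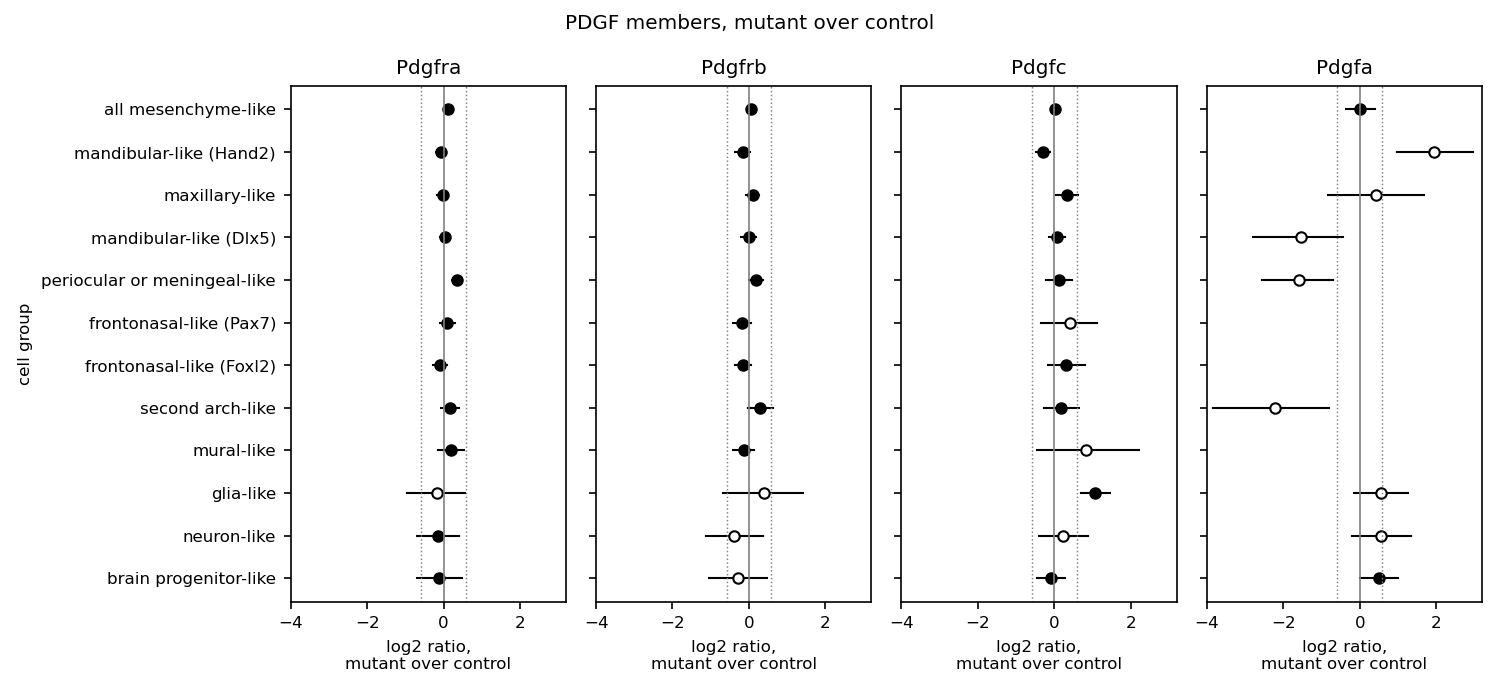
Log2 ratio of mutant over control for 4 PDGF members over the mesenchyme, in each named cluster and in 3 other classes; lines are 95% intervals for counting error, filled points have at least 100 UMIs over both libraries, open points fewer, values with under 20 UMIs are left out and dotted lines mark 1.5-fold. The receptors lie within the dotted lines in all named mesenchyme clusters, with Pdgfra highest at 0.35 in periocular or meningeal-like cells, Pdgfc lies beyond the dotted line only in glia-like cells among filled points, and Pdgfa points scatter to both sides on few UMIs.

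Genes that act with the PDGF system were examined in the mesenchyme as 5 lists. Of the 10 activation and co-receptor genes, 8 had at least 100 UMIs and none of these was 1.5-fold apart (4.06% of all genes were), with a median log2 ratio of 0.21 against 0.02 over all genes. Nrp1, a co-receptor for semaphorins and VEGF, was at 26.9 and 38.6 CPM (log2 ratio 0.52, 0.42 to 0.62), and Sparc, a matrix protein that binds PDGF-B, at 109 and 156 CPM (0.52, 0.47 to 0.57). Lrp1, an endocytic receptor, was at 72.6 and 80.5 CPM (0.15). Plat, which encodes the tissue plasminogen activator that cuts PDGF-C, was at 21.3 and 23.5 CPM (0.15), and the proprotein convertase gene Pcsk5 at 19.7 and 17.5 CPM (-0.17). Cspg4, which is also in the mural list, was at 1.95 and 2.62 CPM (0.42). Over the mesenchyme, the 15 mural markers summed to 80.7 and 129.9 CPM, with 1 at 0 in each library. Of the 5712 mutant UMIs of these markers, 2 mural-like cells held 694. The 6 neuron markers summed to 51.1 and 89.4 CPM, with none at 0. The part of both marker sets in the list's median was not tested.

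The 25 cytoplasmic effectors, all with at least 100 UMIs, had a median of 0.03 and a range from -0.28 to 0.31, and none was 1.5-fold apart. Hras, a small GTPase of the pathway, was at 0.03, and Akt1, a kinase downstream of the receptors, at 0.02. The 8 feedback genes had a median of 0.01, and the genes with the most UMIs, Dusp6, Spred1, Cbl and Cblb, lay between 0.01 and 0.04. Of the feedback genes, Spry4, an inhibitor of receptor tyrosine kinase signalling, had the lowest ratio, -0.24 (-0.44 to -0.03). Spry2 was at -0.16 (-0.27 to -0.05), and the intervals of the other feedback genes reached 0. These lists lay close to the median of all genes.

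Of the 9 transcriptional response genes, 7 had 100 UMIs and 1 was 1.5-fold apart (against 4.06% of all genes), Junb, with 73 control and 86 mutant UMIs (1.25 and 1.96 CPM, log2 ratio 0.64, 0.18 to 1.12). Ier2, an immediate early gene, was at 0.09, and Myc, a growth regulator, at -0.43 (-0.59 to -0.27) with 15.1 and 11.2 CPM. Among related receptors and their ligands, 4 of 9 had 100 UMIs. Kitl, the ligand of the Kit receptor and a guide of melanocyte precursors, was at 4.08 CPM (238 UMIs) in control and 8.51 CPM (374 UMIs) in mutant, a log2 ratio of 1.06 (0.82 to 1.30), while Kit itself was at 8.73 and 8.24 CPM (-0.08). Kdr, which is also an endothelial marker, was at 0.02. Kitl and Junb were the genes of the 5 lists past 1.5-fold with at least 100 UMIs, and Plau, with 13 and 28 UMIs (1.52, 0.52 to 2.59), was past it below that minimum. Against the 4.06% of all genes with as many UMIs, these counts show nothing particular to the lists.

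Patterns across clusters were compared over 28 points, 14 clusters in each of 2 libraries, which share libraries and depth. The gene most like Pdgfra was Ddr2 (Pearson r = 0.99), which encodes a collagen receptor, followed by Tgfbi, Il11ra1, Lpar1 and Snai2, at 0.98 each. Those most like Pdgfrb were Pcolce (0.98), Tmem119, Wdr86, Col3a1 and Il11ra1, all at 0.97 or above. The receptors were at 0.97 with each other. Pdgfc was most like Grb10 (0.86), Zfp516, Hmga2, Cbfb and Rpl28, and Pdgfa most like Pdlim1 (0.82), Dag1, Kxd1, Slc9a3r1 and Prxl2a. Pdgfa and the receptors were at -0.40 and -0.36, and Pdgfc and the receptors at 0.53 and 0.50. The points include mesenchyme and neural clusters.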

How the data were processed

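A gene-by-barcode matrix each for control and mutant CNCCs was used. The authors deposited UMI counts as whole numbers, which they made with Cell Ranger (6.0.0 per the file headers) on mm10 from 10x 3′ libraries, filtered to cell barcodes and not normalized. The strand setting of the counting is not given in the sources used here; annotated genes on the opposite strand of members held at most 11 UMIs per library. The submitters' processing notes also name bcl2fastq and Seurat 4.3.0.

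The members and all lists were chosen with earlier results of these data known. Barcodes with over 10% mitochondrial UMIs, under 200 or over 7500 genes were removed (523 control, 476 mutant), and 6 barcodes occurred in both libraries. The libraries held 83542433 and 79206144 UMIs before filtering. Libraries were integrated in Seurat 5.3.0 (R 4.3.3) on 2000 genes and 30 dimensions, without the members, Tfap2a or Tfap2b, and clustered at a resolution of 0.05. Because this gave 3 classes, where 4 had been planned, the neural class was divided by its clusters at a resolution of 0.4 after these were seen. Mesenchyme was clustered again in 20 dimensions at 0.4. A cluster was named "-like" from at least 3 detected markers; 1 mesenchyme cluster, in which Scrublet (scanpy 1.11.5) called 74.4% of control and 71.8% of mutant cells doublets, stayed unnamed. Doublets were kept, and removed in an alternative.

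UMIs were summed per library and class or cluster and expressed per 1000000 UMIs (CPM). Intervals at 95% are exact Poisson for sums, exact conditional binomial for log2 ratios and Clopper-Pearson for shares, and the limit for a share of 0 is 3 counts. With 1 library per group there was no test. Ratios are given from 20 UMIs over both libraries. "Apart" means at least 1.5-fold with at least 100 UMIs. Because 3′ counts are not length-scaled in a known way, no transcript levels were compared between genes. Where UMIs or shares of different genes stand side by side, as for the receptors, they describe captured UMIs only. The ratio script was tested on simulated counts. Named were the members, Tfap2a, Tfap2b, from each list the genes past 1.5-fold and at most 4 others with the most UMIs, the 5 genes nearest in pattern to each member with at least 500 UMIs, and the markers and leading genes of clusters. Spry2, Spry4, Pcsk5 and Cspg4 and the cells rich in Pdgfa or Pdgfb were singled out after their values were seen. Alternatives were TMM factors (edgeR 4.0.16), equal weight per cell, thinning, doublet removal, a filter of at most 5% mitochondrial UMIs and at least 1000 genes, other clusterings and other minimum counts. Imputed values were not used. Promoter windows are RefSeq's. Some genes that the naming rule covers are not reported here.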

Additional observations from a re-analysis of the deposited data

Results flagged for a closer look

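Pdgfa and Pdgfc had differences between the libraries that pointed in opposite directions in different cell groups, with intervals for counting error that left out 0. The difference between the groups was not tested, since each group has 1 library. Pdgfc had a log2 ratio of mutant over control of 1.07 in glia-like cells and 0.33 in maxillary-like cells, and of -0.29 in Hand2-led mandibular-like cells. Pdgfa had 0.49 in brain progenitor-like and 1.94 in Hand2-led mandibular-like cells, and -1.54 in the Dlx3-led mandibular-like, -1.59 in periocular or meningeal-like and -2.22 in second arch-like cells. The Pdgfa sums in these mesenchyme clusters were between 6 and 49 UMIs per library, and single cells with epithelial markers gave 26 of the 49 in control periocular or meningeal-like cells and 16 of the 30 in mutant Hand2-led cells. Without these cells the values were -0.50 and 0.84. With thinning the first was 0.20, while the second moved further from 0. The opposite directions thus rest in part on 2 cells that go against their class.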

How the results depend on the processing

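No paired analysis was possible because each group has 1 library, and no replicate could be left out. Of 349 alternative values for 72 results, 311 stayed within a limit, 37 moved past it and 1, from a main interval that left out 0, turned. The limit was the counting interval for log2 ratios and differences of shares. It was 1.5-fold for numbers of genes and of shared nearest genes, and the list's standard deviation for list medians. Another 36 ratios took the other sign from main intervals that reached 0. All 55 values with TMM factors, which shift mesenchyme by 0.03, were among the 311. The cause was not tested for any of the moves. Values are log2 ratios of mutant over control unless stated. With cells thinned to 5000 UMIs, mesenchyme Pdgfra was 0.16 and Pdgfc -0.10, neuron-like Pdgfrb 0.53, glia-like Pdgfa 1.49 and Pdgfc 1.49, Hand2-led mandibular-like Pdgfa 3.0 and Pdgfc -0.49, Dlx3-led mandibular-like Pdgfrb 0.24 and Pdgfc -0.21, Pax7-led frontonasal-like Pdgfc 1.40, unnamed cluster Pdgfra -1.18, and periocular or meningeal-like Pdgfa turned to 0.20. With equal weight per cell, mesenchyme Pdgfra was 0.17 and Pdgfrb 0.16. The stricter filter gave 0.032 and -0.034 for these, 0.51 for periocular or meningeal-like Pdgfra and 0.38 for glia-like Pdgfc. Without doublets, neuron-like Pdgfra was -0.78 and Pdgfc of the unnamed cluster 1.10. At the next resolution, Hand2-led Pdgfrb was -0.43 and Pdgfc -0.54, Pax7-led Pdgfc -0.86 and mural-like Pdgfrb 0.21. Alternatives chosen after seeing the data gave glia-like Pdgfc 0.59 with a Sox10 UMI and 0.65 with low neuron markers, and, without the cells rich in Pdgfa, 0.84 in Hand2-led and -0.50 in periocular or meningeal-like cells for Pdgfa. Without thinning, the mutant minus control difference in the share of mesenchyme cells with Pdgfc was 2.17 percentage points. With a minimum of 30 UMIs, 1156 mesenchyme, 888 neuron-like, 774 brain progenitor-like, 1890 glia-like and 978 mural-like genes were 1.5-fold apart, against 510, 297, 226, 895 and 148. With a pseudocount of 10 CPM, 2 of the 5 genes nearest Pdgfra, 2 for Pdgfrb, 3 for Pdgfa and 3 for Pdgfc were shared with those at 1. Depth limits Pdgfb, Pdgfd and Pdgfa most.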
